A study of Homo sapiens with 12 samples.

Results

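The retinoid visual cycle genes examined here are 9 genes, RPE65, LRAT, RLBP1, RDH5, RDH10, RDH11, STRA6, RGR and BEST1, chosen by name and found as 9 of the 40591 lines with a gene symbol in the deposited count table. They were measured by poly(A) RNA sequencing in 12 libraries of ARPE-19, an immortal human cell line derived from the retinal pigment epithelium (RPE), in 4 groups of 3 libraries. The groups are WT, cells with no open reading frame (ORF) named in the labels; GFP, a stable line expressing the fluorescent protein; GSTA4, a stable line for the detoxifying glutathione transferase of that name; and OSK, a stable line read here as carrying POU5F1, SOX2 and KLF4. The 3 ORF groups were collected after 4 days of expression. All groups share the ARPE-19 background, and neither the promoter driving the ORFs nor the number of clones behind a line is given in the sources used here. Nothing says that the 3 libraries of a group came from separate cultures, so p-values measure only the spread between these libraries, and the effect of an ORF cannot be told apart from other differences between the lines.

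The visual cycle regenerates the chromophore of the photoreceptor opsins. Retinol from the blood enters RPE cells through STRA6, the membrane receptor for retinol-binding protein, and is esterified by LRAT. RPE65 turns the ester into cis-retinol, RLBP1 (cellular retinaldehyde-binding protein, CRALBP) binds the cis-retinoids, and RDH5 with other retinol dehydrogenases oxidises cis-retinol to cis-retinal, which returns to the photoreceptors. RGR is an opsin of the RPE that binds all-trans retinal. BEST1 is not an enzyme of the cycle but a chloride channel of the basolateral RPE membrane, and is included as a gene typical of mature RPE.

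LRAT, RLBP1 and RDH5 had the widest ratios of highest to lowest group mean among the 6 members that passed the filter on low counts (13.7, 7.58 and 4.43), each with its highest level in another line. Sequence before their RefSeq start sites (GRCh38.p14) is shown for that reason, with matches to 9 short motifs in capitals. Of the 250 bases before each start, all from the first base that GENCODE 29 places in an untranslated region onward were left out. The stretch of LRAT lies at chr4:154743750-154743970 on the plus strand, that of RLBP1 at chr15:89221752-89221829 on the minus strand, and that of RDH5 at chr12:55720143-55720366 on the plus strand.
LRAT: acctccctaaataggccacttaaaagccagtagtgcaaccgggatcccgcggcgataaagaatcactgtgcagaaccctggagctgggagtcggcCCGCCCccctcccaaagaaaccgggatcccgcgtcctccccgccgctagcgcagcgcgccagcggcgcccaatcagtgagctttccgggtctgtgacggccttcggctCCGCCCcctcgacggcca
RLBP1: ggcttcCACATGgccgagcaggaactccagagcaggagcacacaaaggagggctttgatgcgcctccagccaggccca
RDH5: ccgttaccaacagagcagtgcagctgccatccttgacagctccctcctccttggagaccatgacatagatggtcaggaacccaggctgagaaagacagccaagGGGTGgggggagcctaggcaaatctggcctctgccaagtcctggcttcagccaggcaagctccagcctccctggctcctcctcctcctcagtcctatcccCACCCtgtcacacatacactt

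The search covered both strands of the 250 bases. The motifs were the E-box CACGTG, the core of the M-box read by MITF (CATGTG), the site of OTX2 and CRX (TAATCC), the half-site of retinoid receptors (AGGTCA), the octamer read by POU5F1 (ATGCAAAT), a SOX core (CATTGT), the box read by KLF factors (CACCC), the GC box (GGGCGG) and a TATA-like box (ATAAAA). LRAT held the TATA-like box at position -30 from the start site, and RPE65 held one at the same distance. The LRAT box begins on the last base of the stretch shown and is otherwise past its end, so it is not in capitals. LRAT also held the GC box on the opposite strand at -155 and -47. RLBP1 held the M-box core on the opposite strand at -244, and, past the stretch shown, the GC box at -89 and the OTX2 and CRX site at -61. RDH5 held the KLF box at -47 and on the opposite strand at -147, and once more at -5, past the stretch shown. Of 35116 promoters of the same length, 14.8% held the TATA-like box, 42.6% the GC box, 5.62% the OTX2 and CRX site, 9.42% the M-box core and 54.7% the KLF box. The motifs were chosen with the expression values known, and a match describes letters only. Promoters were matched for 7 of the 9 members, not for RDH10 and BEST1.

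Total counts ran from 12630675 to 17045454 reads per library. The ORF genes followed the labels: GSTA4 had 415.8 CPM ± 17.6 in its own line against 5.47 to 20.2 CPM in the other group means, and POU5F1, SOX2 and KLF4 had 779.1, 628.1 and 927.8 CPM in OSK. CPM are counts brought to a common library size with edgeR's TMM factors, and the SD is over n = 3 libraries throughout. Of 32 further RPE marker genes, 23 to 25 had a mean of at least 1 CPM in each group. The photoreceptor list of 16 genes summed to between 14.9 and 30.3 CPM in a library. GFP replicate 1 stood apart: it had reads on 27349 named genes, where the remaining libraries had 19488 to 22073. Without it, members called numbered 3 in place of 4 in GSTA4 against GFP, where the share of all genes called also went from 29.2% to 22.6%. They numbered 5 in place of 6 in OSK against GFP (45.9% to 41% of all genes), and 5 as before in GFP against WT (22.2% to 19.1%). Summed markers of other cell types differed between groups, with 1 or a few genes carrying each sum. The 7 immune markers summed to 15.9 to 20.3 CPM in GFP and 0.963 to 1.21 CPM in GSTA4, of which CSF1R made 17 CPM in GFP and 0.459 in GSTA4. PTPRC, AIF1 and CD3E had no read in GSTA4 and at most 5 reads in any group, and CD68 was higher in GSTA4 than in GFP (0.150 against 0.0760 CPM). The 10 endothelial markers summed to 59.9 to 78.1 CPM in GFP and 24.6 to 27.8 CPM in OSK. KDR carried this sum (62.0 and 23.4 CPM), VWF was higher in OSK (2.04 against 1.29 CPM), and CDH5, EMCN and ERG had no read there. The 17 fibroblast or mesenchyme markers summed to 1874 to 2059 CPM in GFP and 1154 to 1193 CPM in OSK, with no read of SNAI2 and LUM in either. Among the genes that carried this difference were PDGFRB (660.0 and 342.7 CPM), CDH2 (260.5 and 135.7 CPM) and VIM (548.8 and 433.9 CPM). TWIST1 was higher in OSK (17.4 against 15.1 CPM). The 10 Mueller glia markers summed to 1194 to 1374 CPM in GFP and 1617 to 1641 CPM in OSK, with no read of AQP4 in either. GLUL (388.4 and 595.2 CPM) and CLU (544.0 and 695.1 CPM) carried this difference. DKK3 (362.7 and 329.0 CPM), CRYM (8.51 and 4.70 CPM) and APOE (3.05 and 1.68 CPM) were lower in OSK. The 8 melanocyte markers, of which PMEL and TYR are RPE genes too and carried the sum, came to 375.6 to 464.6 CPM in GFP and 99.1 to 124.7 CPM in GSTA4. Their part in the results below was not tested, and in bulk RNA fewer cells of a kind cannot be told apart from less RNA per cell.

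Of the 9 members, 6 passed the filter and were tested, and each of these differed among the 4 groups by edgeR's quasi-likelihood F test, as 66.9% of all 15179 tested genes did at an adjusted p under 0.05. RPE65, RGR and STRA6 did not pass it. Among the tested members, 3 had their highest group mean in OSK (RDH5, RDH10 and RDH11), 2 in GFP (RLBP1 and BEST1) and 1 in GSTA4 (LRAT). The lowest mean was in WT for LRAT, RDH5 and RDH10, in OSK for RLBP1 and BEST1, and in GSTA4 for RDH11.

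**Figure D1:**
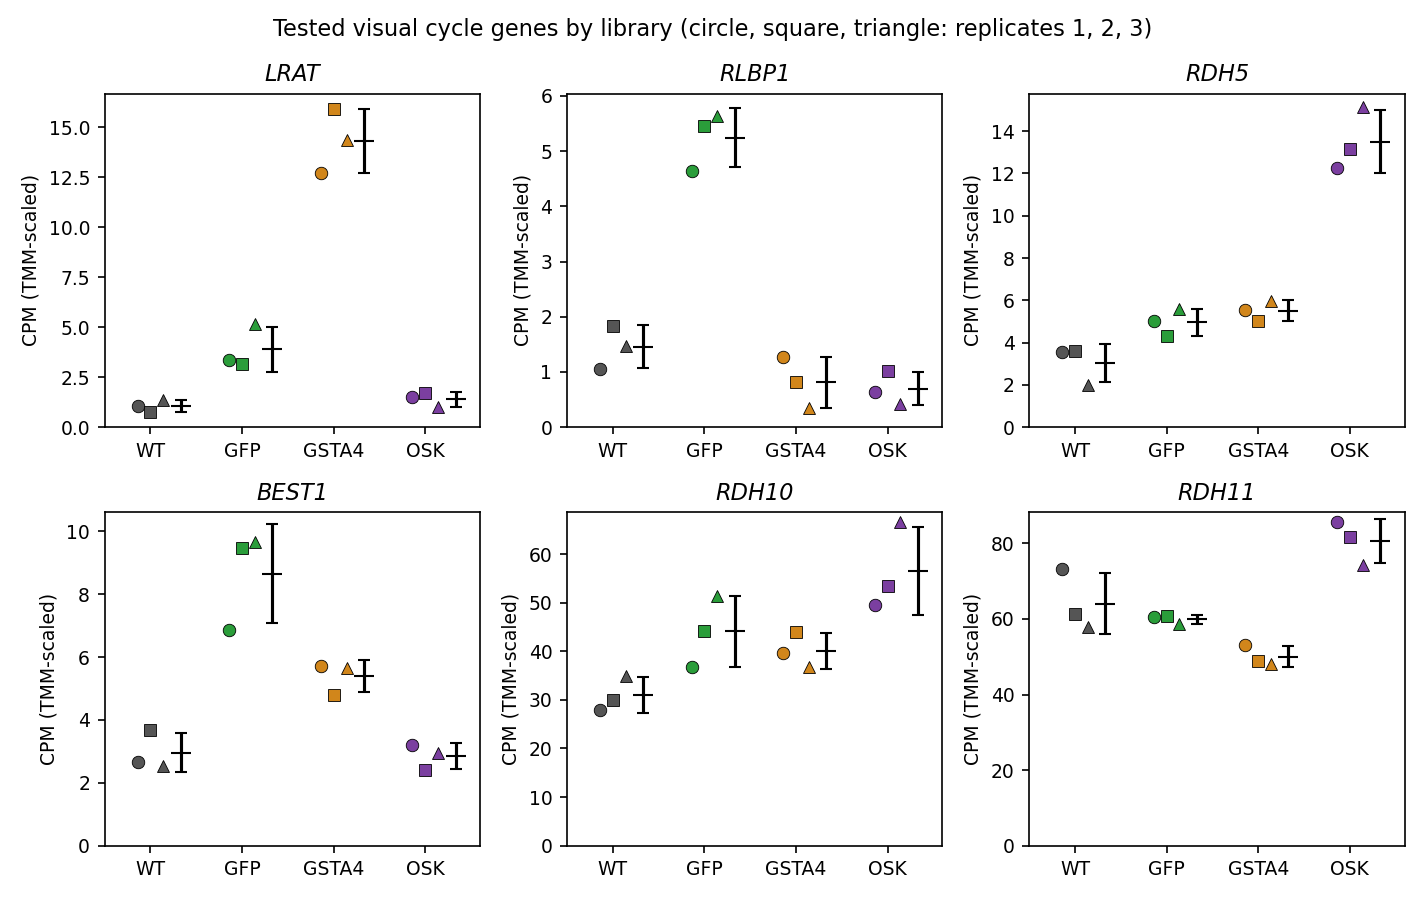
TMM-scaled CPM (linear axes from 0) of the 6 tested members in each library of WT, GFP, GSTA4 and OSK; circles, squares and triangles are replicates 1, 2 and 3, and bars show the mean ± SD of 3 libraries. LRAT stands at 12.7 to 15.9 CPM in GSTA4 and at or under 5.16 CPM elsewhere, RLBP1 and BEST1 are highest in GFP, and RDH5 is highest in OSK.

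LRAT, the acyltransferase that makes retinyl esters, was highest in the GSTA4 line. Its reads were 200, 212 and 209 in GSTA4, 44, 44 and 76 in GFP, 17, 10 and 23 in WT, and 21, 27 and 14 in OSK. The GSTA4 libraries lay above all others, the GFP libraries lay above those of WT and OSK, and the last pair of groups overlapped. In CPM the group means were 14.3 ± 1.6 in GSTA4, 3.89 ± 1.11 in GFP, 1.40 ± 0.372 in OSK and 1.05 ± 0.311 in WT. LRAT rose by 1.87 on the log2 scale in GSTA4 against GFP (SE 0.216, edgeR adjusted p 1.15e-06), a 3.66-fold difference. It also rose in GFP against WT, by 1.86 (SE 0.283, edgeR adjusted p 9.18e-05). GSTA4 against WT spanned 13.3-fold, a rise of 3.74 (SE 0.255, edgeR adjusted p 3.98e-10). In OSK LRAT fell by 1.47 against GFP (SE 0.273, edgeR adjusted p 0.000162), and its difference from WT, 0.39 (SE 0.326), did not pass the test (edgeR adjusted p 0.349). The direct contrast of OSK with GSTA4 gave -3.34 (SE 0.247, edgeR adjusted p 4.38e-10).

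RLBP1, the carrier of cis-retinoids, was highest in the GFP line. Its reads were 61, 76 and 83 in GFP, 17, 25 and 25 in WT, 20, 11 and 5 in GSTA4, and 9, 16 and 6 in OSK. The GFP libraries lay above the other 9, among which WT and GSTA4 overlapped and so did GSTA4 and OSK. Group means were 5.24 CPM ± 0.531 in GFP, 1.46 ± 0.389 in WT, 0.813 ± 0.464 in GSTA4 and 0.692 ± 0.299 in OSK. RLBP1 rose by 1.85 in GFP against WT (SE 0.341, edgeR adjusted p 0.000641). Against GFP it fell by 2.66 in GSTA4 (SE 0.371, edgeR adjusted p 1.37e-05), a 6.33-fold difference. In OSK it fell by 2.89 against GFP (SE 0.380, edgeR adjusted p 2.58e-06), a 7.42-fold difference. OSK and GSTA4 were not told apart, at -0.23 (SE 0.459, edgeR adjusted p 0.715). Against WT the differences were -0.81 in GSTA4 (SE 0.411, edgeR adjusted p 0.130) and -1.04 in OSK (SE 0.421, edgeR adjusted p 0.0502). The OSK value missed the threshold by a small margin, with all 3 OSK libraries under the 3 WT libraries, and over its 19 alternatives the adjusted p ran from 0.0260 to 0.191. It passed the threshold in 9 of them, among them library size alone (adjusted p 0.0366 by edgeR), no filter (0.0394), DESeq2 (0.0387) and the replicate block (0.0433), and without WT replicate 1, GSTA4 replicate 1, GSTA4 replicate 3 or OSK replicate 2. Without GSTA4 replicate 1 the GSTA4 value against WT was -1.31 and past the threshold (edgeR adjusted p 0.0401), in a range over alternatives from 0.0401 to 0.444.

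LRAT and RLBP1 both rose from WT to GFP, while in GSTA4 against GFP the first rose and the other fell. Within a library, where scaling cancels, the ratio of LRAT to RLBP1 reads was 0.579 to 0.916 in GFP, 0.400 to 1.00 in WT, 1.69 to 2.33 in OSK and 10.0 to 41.8 in GSTA4. The range of ratios in GSTA4 was above that of every other group. Over the 12 libraries, which share 4 lines, Pearson's r of their log2 CPM was -0.03.

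RDH5, the dehydrogenase best known for oxidising cis-retinol in the RPE, was highest in OSK. Its reads were 172, 208 and 215 in OSK, 87, 67 and 87 in GSTA4, 66, 60 and 82 in GFP, and 57, 49 and 34 in WT. The OSK libraries lay above the other 9 in CPM, GSTA4 and GFP overlapped, and WT lay below them. The means were 13.5 CPM ± 1.47 in OSK, 5.51 ± 0.479 in GSTA4, 4.96 ± 0.637 in GFP and 3.05 ± 0.905 in WT. RDH5 rose by 1.44 in OSK against GFP (SE 0.187, edgeR adjusted p 2.15e-06), by 1.29 against GSTA4 (SE 0.184, edgeR adjusted p 6.11e-06) and by 2.16 against WT (SE 0.196, edgeR adjusted p 1.28e-08). GSTA4 against GFP gave 0.15 (SE 0.200, edgeR adjusted p 0.616). The rise of 0.72 in GFP against WT (SE 0.214, edgeR adjusted p 0.0205) was lost without GFP replicate 3 (log2 fold change 0.62, edgeR adjusted p 0.0794) and without WT replicate 3 (0.47, edgeR adjusted p 0.109). It was also lost with only the 6 compared libraries (edgeR adjusted p 0.0833), and over its alternatives the adjusted p ran from 0.0126 to 0.109.

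RDH5 lies at chr12:55720367-55724705 in GENCODE 29 (GRCh38), where the readthrough gene BLOC1S1-RDH5 shares 2035 bases, 68.2% of its annotated exon bases. How the authors' counting treated shared reads is not given in the sources used here. BLOC1S1, the upstream neighbour, rose in OSK against GFP by 1.06 (SE 0.298, edgeR adjusted p 0.00610), from 2.78 CPM ± 0.867 to 5.81 ± 1.76. It also rose in OSK against GSTA4, by 0.75 (SE 0.289, edgeR adjusted p 0.0370). Against WT BLOC1S1 did not pass the test in GFP (-0.43, SE 0.308, edgeR adjusted p 0.352). Nor did it in GSTA4 (-0.12, SE 0.299, edgeR adjusted p 0.789) or OSK (0.64, SE 0.284, edgeR adjusted p 0.0741). RDH5 rose in each of these contrasts with WT, by 0.72, 0.87 and 2.16. The part of readthrough in the RDH5 values was not tested.

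RDH10, which oxidises retinol on the way to retinoic acid, had 695, 843 and 948 reads in OSK, 483, 616 and 756 in GFP, 623, 586 and 533 in GSTA4, and 448, 409 and 593 in WT. Its levels spanned less than those of LRAT, RLBP1 or RDH5, from 31.0 CPM ± 3.65 in WT through 40.1 ± 3.68 in GSTA4 and 44.1 ± 7.32 in GFP to 56.5 ± 9.04 in OSK. The WT libraries lay below the other 9, and GFP overlapped both GSTA4 and OSK. RDH10 rose by 0.51 in GFP against WT (SE 0.124, edgeR adjusted p 0.00572) and by 0.87 in OSK against WT (SE 0.122, edgeR adjusted p 6.01e-06). In OSK against GSTA4 it was higher by 0.50 (SE 0.120, edgeR adjusted p 0.00182). The rise of 0.36 in OSK against GFP (SE 0.120, edgeR adjusted p 0.0196) was lost without GFP replicate 1 (0.24, edgeR adjusted p 0.127) and without OSK replicate 3 (0.23, edgeR adjusted p 0.147), with adjusted p-values from 0.000358 to 0.147 over its alternatives. The rise of 0.37 in GSTA4 against WT (SE 0.124, edgeR adjusted p 0.0230) was lost without GSTA4 replicate 2, WT replicate 1 or WT replicate 2, in a range from 0.00121 to 0.114. GSTA4 against GFP gave -0.14 (SE 0.122, edgeR adjusted p 0.425).

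RDH11, a retinol dehydrogenase of broad expression that accepts both cis- and trans-retinoids, had 1204, 1292 and 1057 reads in OSK, 1176, 834 and 979 in WT, 795, 848 and 863 in GFP, and 836, 651 and 698 in GSTA4. In CPM the OSK libraries lay above the other 9 and the GSTA4 libraries below them, while WT and GFP overlapped. The means were 80.6 ± 5.75 in OSK, 64.1 ± 8.08 in WT, 60.0 ± 1.16 in GFP and 50.0 ± 2.73 in GSTA4. RDH11 rose by 0.43 in OSK against GFP (SE 0.0824, edgeR adjusted p 0.000245) and by 0.69 against GSTA4 (SE 0.0832, edgeR adjusted p 6.84e-07). It fell by 0.36 in GSTA4 against WT (SE 0.0837, edgeR adjusted p 0.00198). The fall of 0.26 in GSTA4 against GFP (SE 0.0844, edgeR adjusted p 0.0243) was lost without GFP replicate 1, GFP replicate 2, GSTA4 replicate 2 or GSTA4 replicate 3, with adjusted p-values from 0.00443 to 0.0974 over its alternatives. It was the tested member that did not pass the test in GFP against WT, at -0.10 (SE 0.0830, edgeR adjusted p 0.448).

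The 3 dehydrogenases were thus all highest in OSK, by unequal margins. The ratio of RDH5 to RDH11 reads was 0.169 ± 0.0311 (SD, n = 3) in OSK, 0.111 ± 0.0122 in GSTA4, 0.0829 ± 0.0121 in GFP and 0.0473 ± 0.0121 in WT, with no overlap between OSK and any other group. The ratio of RDH10 to RDH11 did not separate the ORF lines, at 0.709 ± 0.167 in OSK, 0.803 ± 0.0846 in GSTA4 and 0.737 ± 0.135 in GFP, and was 0.492 ± 0.112 in WT. Levels of different genes can be set side by side only per length, and here the order of some depended on the length used. Per kilobase of all annotated exons (GENCODE 29), RDH11 and RDH10 led in every group, at 10.9 and 8.28 CPM per kilobase in GFP and 14.6 and 10.6 in OSK, and they also led per kilobase of the longest transcript, a measure added after seeing the data. RLBP1 in GFP stood at 2.64 CPM per kilobase of exons and RDH5 at 1.66, but at 2.90 and 3.50 with the longest transcript, which reverses their order. In OSK RDH5 came next after RDH10 by either length (4.53 and 9.52), and RLBP1, BEST1 and LRAT stood at 0.349, 0.320 and 0.185 per kilobase of exons.

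BEST1, the chloride channel, had 90, 132 and 142 reads in GFP, 90, 64 and 82 in GSTA4, 43, 50 and 43 in WT, and 45, 38 and 42 in OSK. The GFP libraries were the highest 3, the GSTA4 libraries came next, and WT and OSK overlapped. The means were 8.65 CPM ± 1.57 in GFP, 5.39 ± 0.508 in GSTA4, 2.96 ± 0.619 in WT and 2.85 ± 0.408 in OSK. BEST1 rose by 1.56 in GFP against WT (SE 0.209, edgeR adjusted p 2.56e-05) and by 0.88 in GSTA4 against WT (SE 0.215, edgeR adjusted p 0.00292). It fell by 1.6 in OSK against GFP (SE 0.211, edgeR adjusted p 2.62e-06), while OSK against WT gave -0.05 (SE 0.231, edgeR adjusted p 0.891). OSK against GSTA4 gave -0.92 (SE 0.218, edgeR adjusted p 0.00145). The fall of 0.68 in GSTA4 against GFP (SE 0.196, edgeR adjusted p 0.0122) was lost without GFP replicate 2, GFP replicate 3 or GSTA4 replicate 2, in a range of adjusted p-values over alternatives from 0.00424 to 0.0586.

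BEST1, at chr11:61949821-61965515, shares 1267 exon bases, 14.2% of its total, with FTH1 on the opposite strand. FTH1, the ferritin heavy chain, stood at 1007 CPM ± 80.2 in GFP, above 787.1 ± 112.5 in WT, 717.5 ± 43.3 in GSTA4 and 649.1 ± 106.0 in OSK. It rose in GFP against WT by 0.36 (SE 0.103, edgeR adjusted p 0.0174). Against GFP it fell by 0.49 in GSTA4 (SE 0.103, edgeR adjusted p 0.00117) and by 0.63 in OSK (SE 0.104, edgeR adjusted p 3.99e-05). BEST1 took the same directions in these contrasts, but not in the others. In GSTA4 against WT FTH1 gave -0.13 (SE 0.103, edgeR adjusted p 0.332), where BEST1 rose by 0.88. In OSK against WT FTH1 fell by 0.28 (SE 0.103, edgeR adjusted p 0.0333), where BEST1 gave -0.05. In OSK against GSTA4 FTH1 gave -0.14 (SE 0.103, edgeR adjusted p 0.267), where BEST1 fell by 0.92. BEST1 reads per FTH1 read came to 0.00854 ± 0.000949 in GFP and 0.00752 ± 0.000747 in GSTA4, against 0.00381 ± 0.000866 in WT and 0.00451 ± 0.00121 in OSK. The GFP ratios lay above all WT and OSK ratios and overlapped those of GSTA4 (0.00745 to 0.00919 against 0.00680 to 0.00829). With the counting strand not given, the part of FTH1 reads in the BEST1 counts was not tested.

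RPE65, the isomerohydrolase at the centre of the cycle, was close to the limit of detection. Its reads were 1, 6 and 2 in WT, 2, 3 and 1 in GFP, 0, 0 and 1 in GSTA4, and 9, 10 and 3 in OSK. Only 3 of 12 libraries had more than 3 reads, the floor set here as an approximate upper limit for a count of 0. This floor is 0.177 to 0.228 CPM, and floors and intervals cover counting error only. The sums of 22 reads in OSK and 1 in GSTA4 gave a ratio of 21.8 per unit of sequencing depth, with an exact 95% interval from 3.52 to 898.4. With no filter on low counts, RPE65 did not pass the test of any difference among the 4 groups (edgeR adjusted p 0.0759). In the same fit it was past the threshold in OSK against GSTA4, the groups with the most and fewest reads (edgeR adjusted p 0.0185). It was not past it in OSK against GFP (edgeR adjusted p 0.292) or OSK against WT (edgeR adjusted p 0.546).

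RGR, the RPE opsin, had 8, 5 and 3 reads in WT, 5, 1 and 4 in GFP, 0, 1 and 0 in GSTA4, and 3, 0 and 3 in OSK. STRA6, the retinol importer, had 16 reads in all, of which 12 were in GFP replicate 1, the library with reads on the most genes. Its other GFP libraries had 0 and 1 reads, WT had 1, 0 and 0, OSK had 2, 0 and 0, and GSTA4 had 0 in each. For RGR and STRA6 the unfiltered edgeR fit passed the threshold in no contrast, with adjusted p-values of at least 0.0893 for RGR and 0.0875 for STRA6. At this depth, differences in these genes were not detectable. Over its 3 libraries GSTA4 thus had 1 read of RPE65, 1 of RGR and 0 of STRA6, beside 621 of LRAT.

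**Figure D2:**
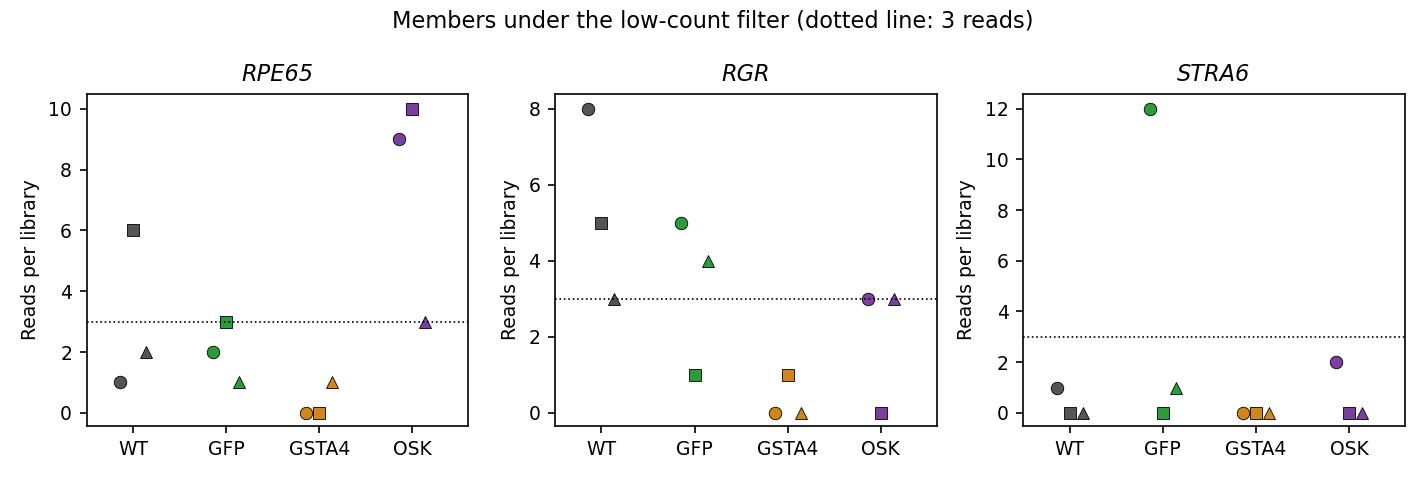
Reads per library of RPE65, RGR and STRA6 in WT, GFP, GSTA4 and OSK (circles, squares and triangles are replicates 1, 2 and 3). The dotted line is 3 reads, the floor set here as an approximate upper limit for a count of 0. Counts run from 0 to 12, and the highest STRA6 value is GFP replicate 1.

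Counted by comparison, GFP against WT held 5 of the 6 tested members higher and 0 lower, where 22.2% of all tested genes were called, 11% higher and 11.2% lower. The median log2 fold change of the members was 1.14, against 0.01 over all genes tested. GSTA4 against GFP had 1 member higher (LRAT) and 3 lower (RLBP1, RDH11 and BEST1), where 29.2% of all genes were called, 14.7% higher and 14.6% lower. OSK against GFP had 3 higher (the RDH genes) and 3 lower (LRAT, RLBP1 and BEST1), where 45.9% were called, 23.1% higher and 22.8% lower. OSK against GSTA4 had 3 higher and 2 lower, where 47.8% were called, 24.1% higher and 23.8% lower. Against WT, GSTA4 had 4 higher and 1 lower, where 38.6% were called, 19.7% higher and 19% lower. OSK had 3 higher and 0 lower against WT, where 45.4% were called, 22.7% in each direction. The comparisons with GFP share its 3 libraries. RPE65, RGR and STRA6 are in none of these counts.

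**Figure D3:**
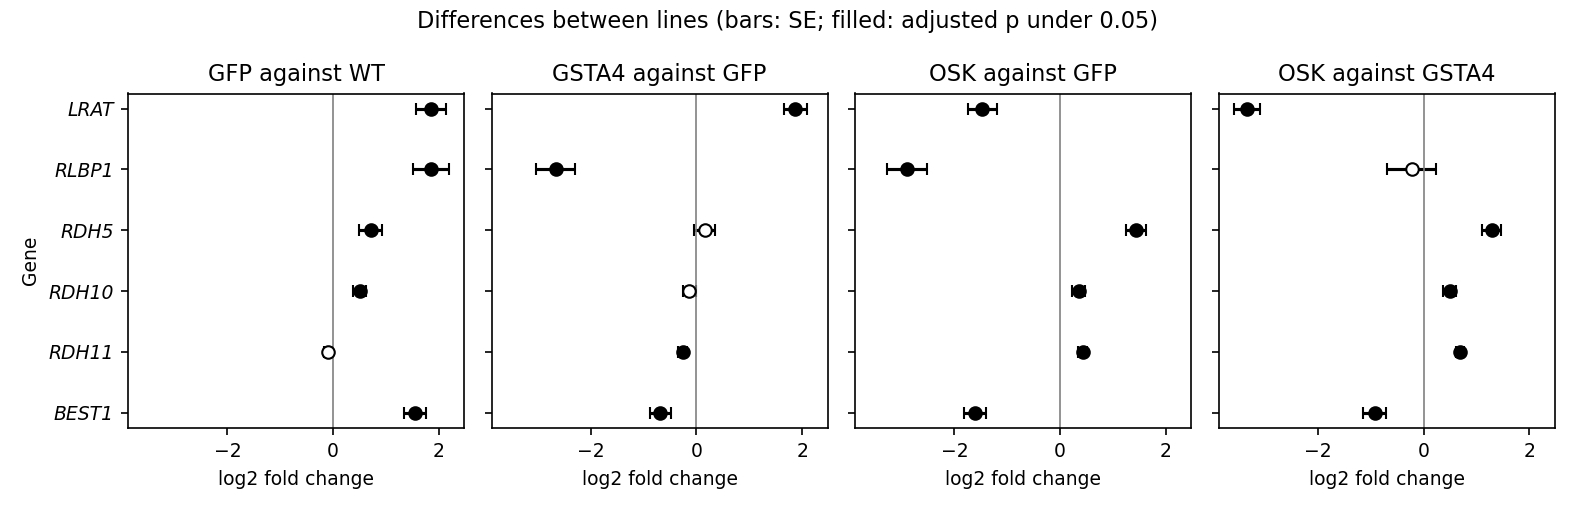
Log2 fold changes (x axis) of the 6 tested members in 4 contrasts, with SE as bars; filled points passed an edgeR adjusted p of 0.05 and open points did not. LRAT lies right of 0 in GFP against WT and in GSTA4 against GFP and left of 0 in both OSK contrasts, while RLBP1 and BEST1 lie left of 0 in GSTA4 and OSK against GFP.

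Other genes of retinoid transport, oxidation, cleavage, degradation and reception were followed in a list of 52, of which 28 were tested. Among the 24 under the filter were TTR and RBP4, carriers of retinol in blood, RDH8, RDH12 and ABCA4, genes of photoreceptors, and CRABP1, which binds retinoic acid in the cytosol. GSTA4 against GFP had 4 of the 28 higher and 7 lower, 39.3% of the list against 29.2% of all genes called, with a median log2 fold change of -0.01 against 0.01 over all genes. The fall with the smallest adjusted p was in RARA, a retinoic acid receptor, from 92.6 CPM ± 2.26 to 43.6 ± 4.84 (-1.08, SE 0.0742, edgeR adjusted p 4.78e-10). ALDH1A3, which makes retinoic acid and was the most abundant gene of the list, fell from 1992 CPM ± 86.5 to 1241 ± 27.4 (-0.68, SE 0.0620, edgeR adjusted p 3.57e-08). CYP26A1, which degrades retinoic acid, fell by 2.37 (SE 0.493, edgeR adjusted p 0.00103) from 61 to 12 reads in all. It passed the filter through libraries of GFP (1.36 to 1.63 CPM) and WT (0.649 to 1.40 CPM). In GSTA4 and OSK it had at most 0.413 and 0.317 CPM. Its place among the 7 lower genes thus depended on groups where it was high, and its p-value is no separate support. LIPE, a lipase that can cleave retinyl esters, rose from 13.4 CPM ± 1.87 to 31.9 ± 2.92 (1.25, SE 0.116, edgeR adjusted p 5.14e-08), and RDH13 rose by 0.46 (SE 0.101, edgeR adjusted p 0.00155).

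The rises of CYP26B1 (0.44, SE 0.131, edgeR adjusted p 0.0147) and of the carotenoid cleavage enzyme BCO2 (0.40, SE 0.123, edgeR adjusted p 0.0190) in GSTA4 against GFP were not held by every library. That of CYP26B1 was lost without GFP replicate 1 or GSTA4 replicate 1. That of BCO2 was lost without GFP replicate 2, GFP replicate 3 or GSTA4 replicate 2 and under DESeq2. Without GFP replicate 3 BCO2 stood at 0.27. Their adjusted p-values over the left-out libraries ran from 0.00422 to 0.0653 and from 0.000621 to 0.130.

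OSK against GFP had 7 of the 28 higher and 6 lower, 46.4% of the list and near the 45.9% of all genes called, with a median of -0.08 against -0.02 over all genes. RETSAT, which saturates retinol, rose from 116.7 CPM ± 9.92 to 253.0 ± 6.40 (1.12, SE 0.0620, edgeR adjusted p 7.77e-12). RARA rose by 0.38 (SE 0.0703, edgeR adjusted p 0.000155) and DHRS7 by 0.42 (SE 0.114, edgeR adjusted p 0.00535). BCO1, which cleaves carotene to retinal, had 44 reads in the OSK libraries against 4 in those of GFP (3.27, SE 0.821, edgeR adjusted p 0.00266). It passed the filter only through the OSK libraries (0.760 to 1.41 CPM, against at most 0.304 CPM in GFP). Its place among the 7 higher genes thus depended on the group where it was high, and its p-value is no separate support. With 1 library left out its fitted value ran from 2.69 to 6.91 and, on so few reads, depends on the prior count. BCO2 fell from 66.8 CPM ± 12.9 to 19.1 ± 2.19 (-1.80, SE 0.138, edgeR adjusted p 1.02e-09). RARG fell by 1.12 (SE 0.115, edgeR adjusted p 9.58e-08), ALDH1A3 by 0.77 (SE 0.0621, edgeR adjusted p 2.24e-09) and the retinal reductase DHRS3 by 0.33 (SE 0.0656, edgeR adjusted p 0.000339). RARA thus differed between OSK and GSTA4 by 1.46 (SE 0.0737, edgeR adjusted p 9.69e-13).

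GFP against WT had 3 of the 28 higher and 8 lower, 39.3% of the list against 22.2% of all genes called. RDH13 rose by 0.46 (SE 0.105, edgeR adjusted p 0.00361). CYP26B1 fell by 0.74 (SE 0.128, edgeR adjusted p 0.000339), DGAT1 by 0.51 (SE 0.117, edgeR adjusted p 0.00407) and AKR1C3 by 0.76 (SE 0.206, edgeR adjusted p 0.0117). RARB, a receptor gene that is itself induced by retinoic acid, fell by 0.56 (SE 0.108, edgeR adjusted p 0.000994), with values from -0.67 to -0.36 when 1 library was left out. The count of 11 was 5 without GFP replicate 2, where the share of all genes called was 14.5%. It was 6 with only the 6 compared libraries, where 2407 of 14490 genes were called. GSTA4 against WT had 4 higher and 12 lower, 57.1% of the list against 38.6% of all genes called. OSK against WT had 6 and 8, 50% against 45.4%. OSK against GSTA4 had 8 and 5, 46.4% of the list and near the 47.8% of all genes called.

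**Figure D4:**
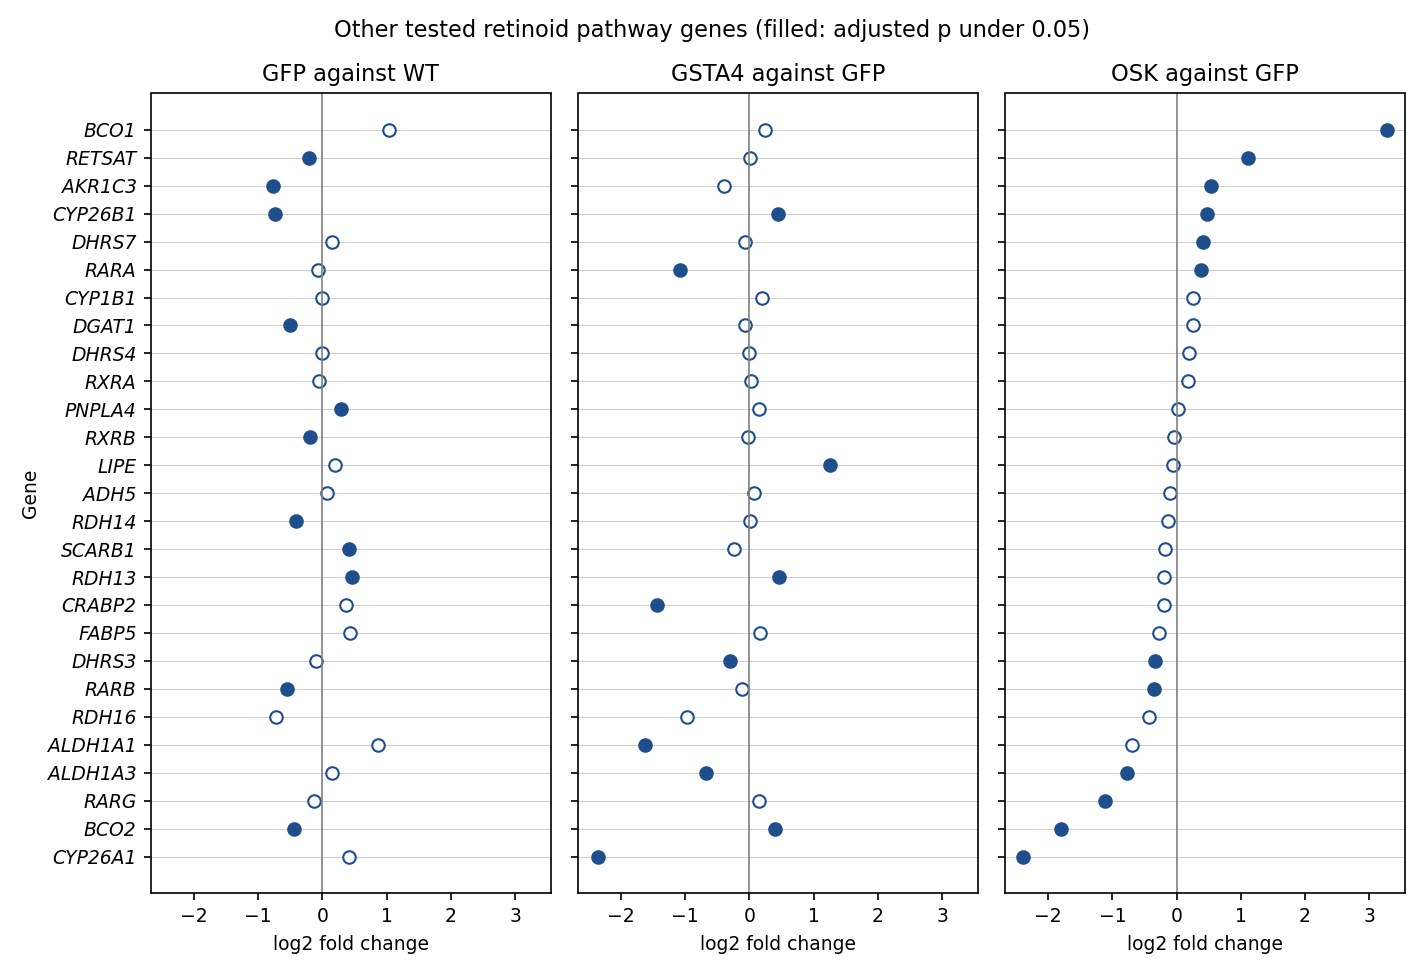
Log2 fold changes (x axis) of tested genes of the wider retinoid list, all but 1 of the 28, in 3 contrasts, ordered by OSK against GFP; filled points passed an edgeR adjusted p of 0.05 and open points did not. RETSAT and BCO1 lie right of 0 and BCO2, RARG and ALDH1A3 left of 0 in OSK, and RARA lies left of 0 in GSTA4 and right of 0 in OSK.

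Genes reported to respond to retinoic acid, many of which respond to other signals too, formed a list of 26 that shared 7 genes with the one above. Of 19 tested, 3 were higher and 9 lower in GSTA4 against GFP, 5 higher and 10 lower in OSK against GFP, and 4 higher and 5 lower in GFP against WT. These are 63.2%, 78.9% and 47.4% of the list, where 29.2%, 45.9% and 22.2% of all genes were called. TGM2, tissue transglutaminase, fell by 2.94 in GSTA4 against GFP (SE 0.384, edgeR adjusted p 5.96e-06), from 6.72 CPM ± 0.895 to 0.859 ± 0.250. In the same contrast GPRC5A rose by 0.80 (SE 0.0824, edgeR adjusted p 2.14e-07) and SMAD3 by 0.57 (SE 0.0604, edgeR adjusted p 3.84e-07). BHLHE40 moved in opposite directions, to -1.71 in GSTA4 (SE 0.0952, edgeR adjusted p 2.20e-11) and 1.20 in OSK (SE 0.0869, edgeR adjusted p 4.40e-10) against GFP. RARRES2 rose in OSK against GFP by 0.59 (SE 0.168, edgeR adjusted p 0.00654), but had fallen in GFP against WT by 1.06 (SE 0.169, edgeR adjusted p 0.000165). Its means were 980.3 CPM ± 76.9 in OSK and 1349 ± 583 in WT. PLAAT4 also rose in OSK against GFP, by 1.81 (SE 0.397, edgeR adjusted p 0.000866). Among the 10 lower in OSK against GFP were MEIS2 (-0.48, SE 0.0645, edgeR adjusted p 3.22e-06) and SMAD3 (-0.44, SE 0.0608, edgeR adjusted p 5.01e-06).

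Of 25 tested RPE markers, 11 had their highest mean in GFP, as RLBP1 and BEST1 did, among them PMEL, TYR and MITF. In OSK 6 were highest, among them CST3, EZR and ITGB8, in WT 4 (KRT8, KRT18, LHX2 and VEGFA), and in GSTA4 4, among them ENPP2 and SLC45A2. PMEL, a melanosome protein, fell against GFP by 1.82 in GSTA4 (SE 0.133, edgeR adjusted p 1.31e-09) and by 1.69 in OSK (SE 0.132, edgeR adjusted p 1.54e-09). TYR, the tyrosinase of melanin synthesis, ran from 11.9 CPM ± 0.928 in GSTA4 through 21.2 ± 9.73 in WT and 33.7 ± 2.74 in OSK to 66.0 ± 7.61 in GFP. MITF, the regulator of pigment genes, fell in OSK against GFP by 0.78 (SE 0.0684, edgeR adjusted p 9.09e-09). Of the 25, 10 were higher and 5 lower in GFP against WT, 3 higher and 13 lower in GSTA4 against GFP, and 4 higher and 15 lower in OSK against GFP. These are 60.0%, 64.0% and 76.0% of the list, where 22.2%, 29.2% and 45.9% of all genes were called.

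The genes whose log2 CPM followed a member most closely were sought among 11049 genes with a mean of at least 5 CPM, for the 4 members at that level, by Pearson's r over 12 libraries. The points are 3 libraries each of 4 lines and so share their lines. LRAT was nearest to HIBADH (r 0.976), LOXL4 (0.968) and CENPT (0.968), of which CENPT had 263.4 CPM in GSTA4 and 80.5 in GFP. RDH5 was nearest to MCM4 (0.980), KIF20B (0.975) and PLK1 (0.971), genes of DNA replication and mitosis. RDH10 was nearest to RNASET2 (0.961), TMEM117 (0.956) and MAD2L1 (0.944). RDH11 was nearest to ITGB8 (0.979), SMPD3 (0.973) and SNTB2 (0.970). Among the members themselves, r was 0.79 for RDH5 with RDH10, 0.64 for RLBP1 with BEST1 and -0.76 for LRAT with RDH11.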

How the data were processed

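Poly(A) RNA from 12 ARPE-19 libraries was sequenced, and the authors deposited 1 table of raw read counts per gene, whole numbers that sum to a different total in each library. Per the submitters' processing notes, STAR 2.7.1a and featureCounts 1.6.2 were used, and human and mouse builds are named without a role. Annotation release, strand setting and the handling of overlapping genes are not given in the sources used here. Lines without a symbol (20014 of 60605, 0.485% to 0.822% of reads) were left out.

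Counts were tested with edgeR 4.0.16 in R 4.3.3 (quasi-likelihood, TMM scaling, filterByExpr with the groups, 15179 genes kept). All 12 libraries entered 1 fit with a mean per group, with 8 residual degrees of freedom. All tests are two-sided, with Benjamini-Hochberg adjustment over the genes tested and a threshold of 0.05. SE are the log2 fold change over the root of F, and fitted folds use a prior count of 0.125. Results on the members and the named genes of the lists were recomputed with DESeq2 1.42.0, with RLE factors or plain library sizes in place of TMM, without the filter or with one at 1 CPM on average, blocking on replicate number, leaving out single libraries, and fitting only the 6 libraries of a contrast.

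Members and lists were chosen with earlier results of these data known. Besides the members, the rule named up to 4 genes per list, contrast and direction with the lowest adjusted p among genes with at least 1 CPM in a group, and some of these are not printed. FTH1, BLOC1S1, RDH10-AS1, ABCA4 and RDH12 were chosen after their values were seen. For likeness it named the 3 highest r per member. Coordinates are from GENCODE 29 (GRCh38) and promoters from RefSeq (GRCh38.p14); exon bases are the union over transcripts. Some genes of the lists are counted but not reported by name here.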

Additional observations from a re-analysis of the deposited data

How the results depend on the processing

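Of 36 fold changes (6 tested members in 6 contrasts), 28 were past the threshold, and 23 of these stayed so under all 19 alternatives. The other 5 lost their call under some alternative and are named in the report. Members called in GSTA4 against GFP numbered 4, where 4439 of all 15179 genes were called, and 2 to 4 with 1 library left out. They numbered 2 without GFP replicate 2 (3724 of 15610 genes called) or GSTA4 replicate 2 (3459 of 15668). Wider retinoid genes called in GFP against WT numbered 11, and 6 with only the 6 compared libraries, where 2407 of 14490 genes were called. They numbered 5 to 11 with 1 library left out, 5 being without GFP replicate 2 (2267 of 15610 genes called). Among members that did not pass the test, the sign changed with 1 library left out for RDH11 in GFP against WT (-0.17 to 0.01, 0.00749 without WT replicate 1), RLBP1 in OSK against GSTA4 (-0.62 to 0.27, with 0.27 without GSTA4 replicate 1 and 0.03 without OSK replicate 3) and BEST1 in OSK against WT (-0.15 to 0.13, with 0.13 without WT replicate 2 and 0.07 without OSK replicate 2). The replicate number as a block left the members called at 4 in GSTA4 against GFP and at 6 in OSK against GFP. Of all 15179 genes, 4734 and 7269 were called there with the block, and 4439 and 6962 without it. The block also brought RLBP1 in OSK against WT past the threshold (-1.06, edgeR adjusted p 0.0433). Members called in that contrast were thus 4 in place of 3, where 7154 genes were called in place of 6890. The labels tie samples of the same number by nothing else. Their deviations correlated at a median of 0.08, with 6 of 18 pairs over 0.1, against -0.07 and 1 of 36 for pairs of different numbers, and 9 of 12 libraries correlated best with their own number, a hint from the data and not the design. With no block, GFP against WT had 11 wider retinoid genes called, and 13 with it, where 3369 and 3779 of all 15179 genes were called. The longest transcript in place of all exons, added after seeing the data, reversed the order of RLBP1 and RDH5 per kilobase in GFP. Depth limits RPE65, RGR and STRA6, at 38, 33 and 16 reads over 12 libraries. FTH1, BLOC1S1 and RDH10-AS1, given beside overlapping members, were not recomputed under the alternatives.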

Other observations

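RDH10-AS1, the antisense gene of RDH10, shares 278 exon bases with it (5.23%) and had 5, 5 and 5 reads in WT, 11, 11 and 25 in GFP, 13, 11 and 10 in GSTA4, and 9, 16 and 16 in OSK. It rose in GFP against WT by 1.76 (SE 0.491, edgeR adjusted p 0.0139) and did not pass the test in OSK against GFP (-0.26, SE 0.427, edgeR adjusted p 0.647). With the counting strand not given, reads of the 2 genes in their shared bases cannot be told apart.

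ABCA4, the retinoid transporter of photoreceptors, had 29 reads in GFP, of which 19 were in GFP replicate 1 and 8 and 2 in the others, 7 in OSK, 3 in WT and 1 in GSTA4, and RDH12, a photoreceptor retinol dehydrogenase, had 14, 0, 2 and 4 in the same order. Both were under the filter and are given as sums of 3 libraries.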
